A study of Homo sapiens with 12 samples.

Results

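The 7 drug efflux genes of the ATP-binding cassette (ABC) superfamily, ABCB1, ABCG2, ABCC1, ABCC2, ABCC3, ABCC4 and ABCC5, were followed through RNA sequencing of 2 cholangiocarcinoma (CCA) cell lines. They were chosen by symbol, matched through the Ensembl identifiers of the count table, and are 7 of its 60651 genes. EGI-1 cells were grown for 72 h with DMSO vehicle, with 0.5 μM of the DNMT inhibitor (DNMTi) decitabine, with 200 nM of the PARP inhibitor (PARPi) talazoparib, or with both agents at these doses. HUCCT1 cells were grown for 72 h with DMSO vehicle or with 1 μM decitabine. Both lines were labelled wild type, and each of the 6 groups had 2 libraries, 12 in all. No source states whether the 2 libraries of a group came from separate cultures, so the p-values measure the spread between these libraries only, which may be technical. Each line stands for one tumour.

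ABC transporters use ATP to move their substrates across a membrane, and those studied here pump drugs and drug conjugates out of cells. In polarised epithelium ABCB1 (P-glycoprotein), ABCG2 (breast cancer resistance protein) and ABCC2 (MRP2) sit in the apical membrane, which in bile ducts faces the bile, while ABCC3 (MRP3) and ABCC1 (MRP1) sit in the basolateral membrane. Talazoparib is a known substrate of P-glycoprotein and of ABCG2, and ABCC4 (MRP4) and ABCC5 (MRP5) are known to export cyclic nucleotides and the phosphates of nucleoside drugs.

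The 7 genes lie on 7 chromosomes of GRCh38. ABCB1 spans chr7:87503017-87713323, ABCG2 chr4:88090150-88231628, ABCC4 chr13:95019835-95301475 and ABCC5 chr3:183919934-184017939, all on the minus strand. ABCC1 spans chr16:15949138-16143257, ABCC2 chr10:99782640-99852594 and ABCC3 chr17:50634777-50692253, all on the plus strand. Genes inside their introns or crossing them shared 0 exon bases with them. Of these, RUNDC3B, which runs against ABCB1, was called in none of the 9 comparisons, with adjusted p-values between 0.0882 and 1.

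Decitabine lowers DNA methylation, which is laid down on the C of CG dinucleotides, so the promoters of 4 members are shown with every CG in capitals. The windows are those of RefSeq (GRCh38.p14), 250 bases before to 50 after a start site, 5′ to 3′ on the gene's strand. 5 of the 7 members had an entry, while ABCC1 and ABCC3 had none. The first ABCG2 line is its most upstream start, chr4:88231577-88231876, and the second a start nearer the coding part, chr4:88158860-88159159, both on the minus strand. They are shown because ABCG2 rose with decitabine in HUCCT1. The ABCB1 window, chr7:87600835-87601134 on the minus strand, belongs to the gene that stayed near 0. The ABCC5 window, chr3:184017835-184018134 on the minus strand, belongs to the gene that rose under the combination, and the ABCC2 window, chr10:99782390-99782689 on the plus strand, is shown as the one poorest in CG together with an upstream start of ABCB1.
ABCG2 upstream start: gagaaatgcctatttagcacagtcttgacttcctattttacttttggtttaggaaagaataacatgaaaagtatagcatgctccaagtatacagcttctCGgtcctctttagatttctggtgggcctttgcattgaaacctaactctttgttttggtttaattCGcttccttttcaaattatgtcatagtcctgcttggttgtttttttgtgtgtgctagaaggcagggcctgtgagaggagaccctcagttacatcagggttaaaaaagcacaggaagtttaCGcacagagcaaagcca
ABCG2 downstream start: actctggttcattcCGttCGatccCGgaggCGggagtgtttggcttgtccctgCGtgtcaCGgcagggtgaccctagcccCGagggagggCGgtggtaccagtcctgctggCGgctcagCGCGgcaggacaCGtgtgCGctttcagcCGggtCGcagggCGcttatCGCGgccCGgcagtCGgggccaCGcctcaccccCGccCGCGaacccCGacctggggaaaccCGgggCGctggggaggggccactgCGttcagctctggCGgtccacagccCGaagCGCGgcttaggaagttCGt
ABCB1 downstream start: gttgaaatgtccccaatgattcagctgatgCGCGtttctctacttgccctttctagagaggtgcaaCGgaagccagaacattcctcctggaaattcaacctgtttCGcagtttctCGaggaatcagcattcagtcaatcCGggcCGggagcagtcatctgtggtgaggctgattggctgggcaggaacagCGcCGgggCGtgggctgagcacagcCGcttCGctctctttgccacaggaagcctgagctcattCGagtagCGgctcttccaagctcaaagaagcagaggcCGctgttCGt
ABCC5: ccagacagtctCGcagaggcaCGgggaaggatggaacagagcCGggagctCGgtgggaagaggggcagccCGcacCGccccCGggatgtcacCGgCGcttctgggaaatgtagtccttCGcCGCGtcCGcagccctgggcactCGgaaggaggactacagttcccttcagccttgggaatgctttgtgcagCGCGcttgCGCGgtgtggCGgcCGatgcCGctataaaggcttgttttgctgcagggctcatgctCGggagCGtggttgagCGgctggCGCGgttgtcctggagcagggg
ABCC2: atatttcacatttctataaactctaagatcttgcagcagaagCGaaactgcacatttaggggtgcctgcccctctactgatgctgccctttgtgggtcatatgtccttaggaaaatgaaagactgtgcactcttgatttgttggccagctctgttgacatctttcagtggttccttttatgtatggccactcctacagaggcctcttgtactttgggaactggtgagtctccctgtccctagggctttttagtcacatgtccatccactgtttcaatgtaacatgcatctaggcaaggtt

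Among 35114 such windows the median held 14 CG dinucleotides. The upstream ABCG2 window held 3, and 18.2% of all windows held fewer. The downstream ABCG2 window held 33, and 82.8% held fewer. One gene thus has a CG-poor and a CG-rich start, and counts per gene do not show which was used. The ABCB1 window shown held 16 CG dinucleotides and that of ABCC5 held 26. The ABCC2 window held 1, with 3.96% of windows lower, and the window of ABCC4, not printed, held 47, with 97.6% lower. The GC box GGGCGG, searched on both strands, lay in the downstream ABCG2 window and in that of ABCC5, and in 45% of all windows. The antioxidant response element TGACNNNGC, also searched on both strands, lay in a further ABCG2 window and in the ABCC4 window, and in 13.3% of all windows. These matches are letters in a window only. DNA methylation was not measured in these files.

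The EGI-1 libraries held 23139065 to 33181930 counts and those of HUCCT1 32519985 to 34965627. The cell type given in the labels was checked with 8 epithelial markers found in bile ducts, though not only there. All had counts in every library. Of these, the keratin KRT7 was low in EGI-1, at 40.9 CPM (counts scaled to library size) in vehicle against 6990 in HUCCT1. With decitabine in HUCCT1 5 of the 8 fell and 1 rose, against 13.9% of all genes called lower and 19.6% higher. Log2 fold changes were -0.90 for KRT18, -0.82 for KRT8 and 0.73 for CDH1, the one that rose. The summed level of the 8 went from 14800 and 16600 to 9390 and 10700 CPM. Of 7 hepatocyte markers, ALB, APOB and TTR were at or near 0, but the summed level of the list was 57.8 to 82 CPM in HUCCT1 vehicle, 100 to 110 CPM with decitabine and 21.7 to 27.8 CPM in EGI-1, and 1 of 2 tested rose in HUCCT1. In HUCCT1, 4 of 4 endothelial markers rose with decitabine, their summed level going from 4.23 to 5.47 CPM in vehicle to 25.8 to 27.1 CPM, and of 4 fibroblast markers tested 3 rose and 1 fell. The collagen gene COL1A1 went from a mean of 28.1 to 174 CPM, COL1A2 from 0.033 to 1.71 CPM and the receptor gene PDGFRB from 0.545 to 2.61 CPM, while LUM fell from 8.81 to 4.27 CPM. COL3A1 and DCN were at 0.0325 and 0.306 CPM with decitabine.

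1 library stood apart. EGI-1 combination replicate 2 held transcripts known from T lymphocytes. PTPRC, the leukocyte surface phosphatase CD45, had 381 counts there and 1 to 7 in the other EGI-1 libraries. The T cell receptor subunits CD3E and CD3G had 148 and 34 counts, against at most 4 and 0 in the others. In all, 13 of 13 lymphocyte genes had counts in it, and their summed level was 54.3 CPM, against 0.164 to 1.06 CPM in the other 7 EGI-1 libraries. EGI-1 also lacked moesin, the membrane-cytoskeleton linker MSN, with 0 to 6 counts in those 7 libraries and 196 in combination replicate 2. The lymphocyte list was written after PTPRC and CD3E had been seen. The combination results of the members are therefore also given without this library, and the counts over gene lists likewise. In HUCCT1 the summed level of the same 13 genes rose from 0.562 and 0.692 CPM in vehicle to 4.66 and 4.91 CPM with decitabine, through ZAP70, CCR7 and CD3E in both libraries, while PTPRC had 3 counts in each of these and CD2 and CD3G had 0.

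In vehicle-treated EGI-1 cells ABCC3 was the most abundant member by far per length. Levels were compared between genes as CPM per kilobase of exon. ABCC3, an exporter of bile salts and glucuronides, reached 18.0 ± 0.27 (SD, n = 2). ABCC4, an exporter of cyclic nucleotides, followed at 3.62 ± 0.25. ABCC1, which exports glutathione conjugates, stood at 1.79 ± 0.048 and ABCC5 at 1.78 ± 0.021, and the libraries of this neighbouring pair overlapped. ABCC2, the exporter of conjugated bilirubin, followed at 1.01 ± 0.0097 and ABCG2 at 0.769 ± 0.0021, the other neighbours being separate. With the length of the longest transcript in place of all exons, ABCC5 stood above ABCC1. Among 19928 protein-coding genes, 88.4% were lower per length than ABCC3 in these cells, and 45.6% were lower than ABCG2.

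In vehicle-treated HUCCT1 cells the order began the same way, with ABCC3 at 9.49 ± 1.1 and ABCC4 at 7.19 ± 0.70 CPM per kilobase. ABCC5 came next at 4.36 ± 0.22, ABCC1 after it at 2.54 ± 1.3, then ABCG2 at 0.902 ± 0.073 and ABCC2 at 0.539 ± 0.043, and no neighbours in this order overlapped. The gap between ABCC3 and the rest was smaller than in EGI-1: ABCC3 made up 37.8% and 39.9% of the summed member CPM of the HUCCT1 vehicle libraries, and 68.4% and 68.8% of that of the EGI-1 vehicle libraries.

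**Figure D1:**
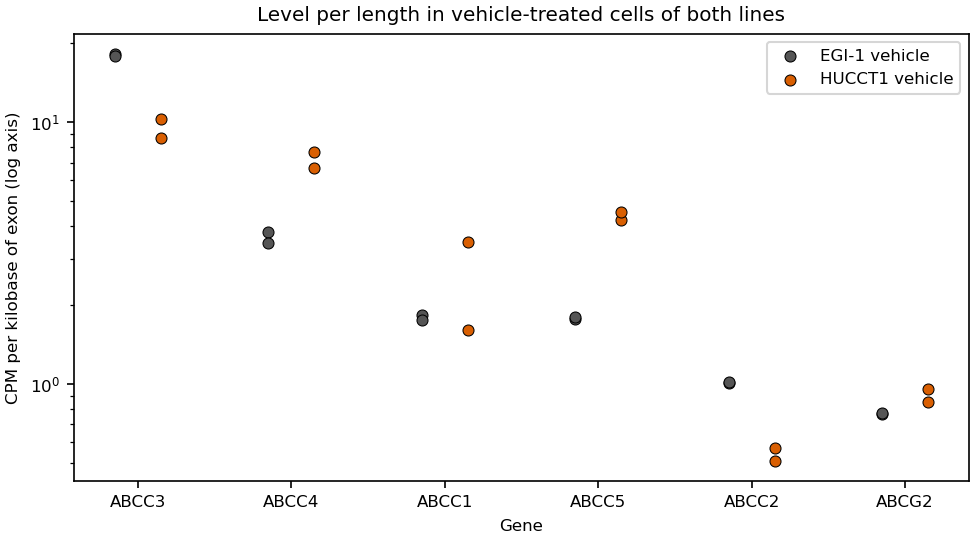
Level of 6 members per kilobase of exon (log axis) in the vehicle libraries of EGI-1 (grey) and HUCCT1 (orange), 1 point per library. ABCC3 was at 18.0 in EGI-1 and 9.49 in HUCCT1, while ABCC4 and ABCC5 were higher in HUCCT1, and ABCB1 is left out because it was at or near 0.

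How far the lines differ before any drug was tested over 25096 genes. Library names carry different codes in the lines, so the line and any batch behind these codes cannot be told apart. Of 6 members tested, 2 were higher in HUCCT1 vehicle than in EGI-1 vehicle and 2 lower, against 28.5% of all genes higher and 27.3% lower. ABCC5 was 2.45-fold higher, at 47.9 and 51.4 CPM in HUCCT1 against 20.1 and 20.4 CPM in EGI-1 (log2 fold change 1.29, SE 0.093, adjusted p = 1.03e-10). ABCC4 was 1.99-fold higher (log2 0.99, SE 0.10, adjusted p = 2.97e-08). ABCC3 was lower by 0.92 on the log2 scale, a log2 fold change of -0.92 with SE 0.094 (adjusted p = 2.51e-08), and ABCC2 had a log2 fold change of -0.91 (SE 0.19, adjusted p = 0.000279). Of these, each kept separate libraries between the lines, but so did ABCG2, which was not called. With upper-quartile scaling the median of all genes moved by -0.118 on the log2 scale in this comparison. The 4 members called kept their direction and their call.

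ABCG2 and ABCC1 did not pass this test. ABCG2 had a log2 fold change of 0.23 (95% interval -0.16 to 0.61, adjusted p = 0.309). ABCC1 had 0.50 (-0.37 to 1.37, adjusted p = 0.289), and its 2 HUCCT1 vehicle libraries disagreed, at 14.0 and 30.4 CPM. Without the library at 14.0 CPM the value was 0.96 (adjusted p = 0.000281), and without the one at 30.4 CPM it was -0.16 (adjusted p = 0.532).

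ABCB1, the P-glycoprotein gene and the best known multidrug transporter, was close to absent from both lines. It had 0 counts in 7 of the 12 libraries, among them both EGI-1 vehicle libraries. A count of 0 allows a level of up to about 3 counts, 0.0985 and 0.108 CPM in those libraries, and this floor covers counting error only. ABCB1 had 2 counts in EGI-1 decitabine replicate 2, 1 in talazoparib replicate 2 and 1 in HUCCT1 vehicle replicate 2. It did not pass the filter on low counts and was not tested. With no filter it was called in 1 of 9 comparisons, combination against vehicle (adjusted p = 0.0183), with all of the combination counts in replicate 2. Its 2 highest counts were 15 in EGI-1 combination replicate 2 (0.494 CPM, exact Poisson 95% interval 0.276 to 0.815) and 7 in HUCCT1 decitabine replicate 2 (0.237 CPM, 0.0951 to 0.487). The other library of each of these groups had 0. The library with 15 counts is the one with lymphocyte transcripts, and the part of those transcripts in the ABCB1 count was not tested. The library with 7 counts had a summed lymphocyte level of 4.66 CPM, and its partner with 0 counts had 4.91 CPM.

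**Figure D2:**
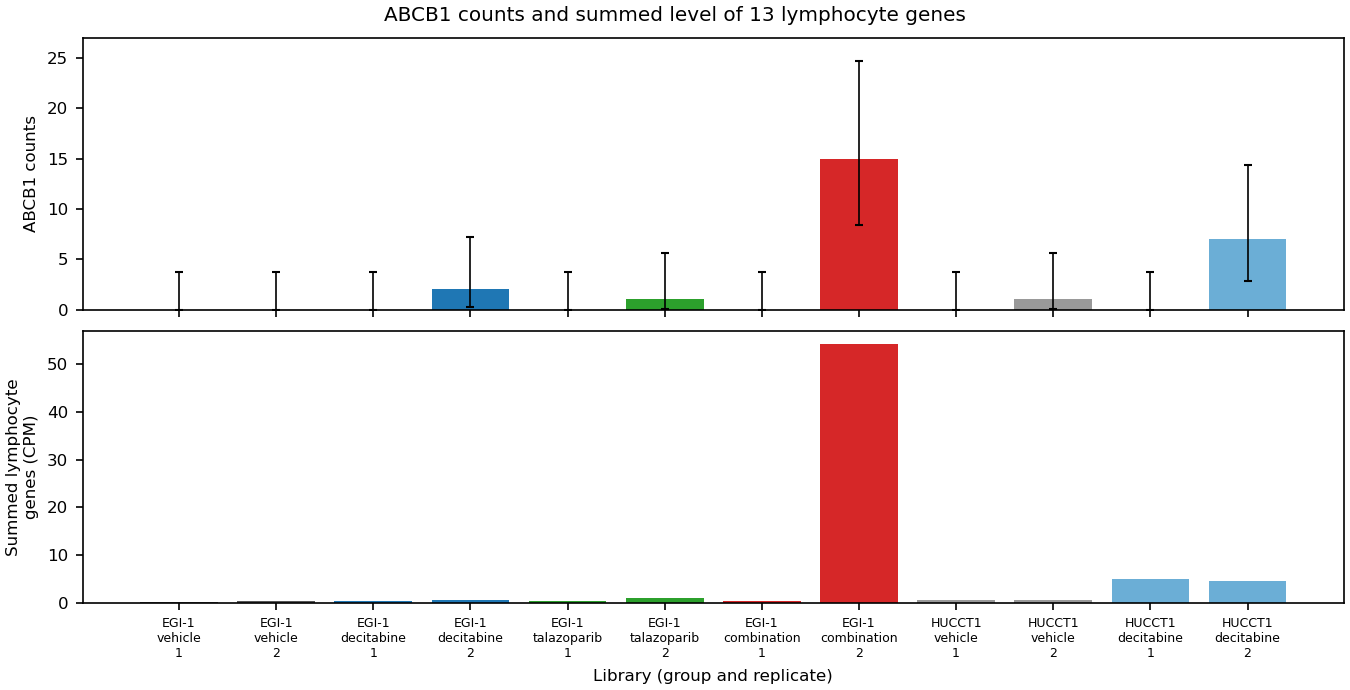
ABCB1 counts with exact Poisson 95% intervals (top) and the summed level of 13 lymphocyte genes in CPM (bottom) in each of 12 libraries. EGI-1 combination replicate 2 is highest in both, at 15 counts and 54.3 CPM, while EGI-1 combination replicate 1 has 0 counts and 0.45 CPM.

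Decitabine alone was asked about first, as the DNMTi arm of EGI-1. ABCC3 was at 139 and 157.5 CPM with decitabine and at 175 and 171 CPM with vehicle, so both treated libraries lay below both vehicle libraries, but the change did not pass the test (log2 fold change -0.22, SE 0.072, adjusted p = 0.275). The decitabine libraries of the other members tested were separate from vehicle too. ABCC4 had 38.3 and 35.2 CPM against 32.8 and 29.7 CPM (log2 0.24, adjusted p = 0.368), and ABCC5 had 22.4 and 24.5 CPM against 20.1 and 20.4 CPM (log2 0.22, adjusted p = 0.467). ABCG2 had 4.59 and 6.21 CPM against 4.30 and 4.32 CPM (log2 0.33, 95% interval -0.06 to 0.72, adjusted p = 0.643). ABCC1 stood at -0.32 (adjusted p = 0.511) and ABCC2 at 0.15 (adjusted p = 0.843). By edgeR, 0 of 6 members were called, and 4 had an unadjusted p under 0.05, as had 2048 of all genes tested. Of all 22406 genes, 0.518% were called higher and 0.0268% lower. DESeq2 also called 0 members. Without decitabine replicate 2, ABCC3 was called (log2 -0.31, adjusted p = 0.0274).

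Talazoparib alone lowered ABCC3 in EGI-1. The gene went from 175 and 171 CPM in vehicle to 121 and 110 CPM. The groups did not overlap, but nor did those of the other members tested, so separation does not set ABCC3 apart. How common such separation was among all genes was not counted. Its level fell by 33.1% (log2 fold change -0.58, SE 0.073, adjusted p = 0.00013). It was the 1 member called, against 1.29% of all genes called lower and 2.83% called higher.

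The other members were not called with talazoparib. ABCC5 had 25.1 and 22.9 CPM (log2 0.24, SE 0.091, adjusted p = 0.173) and ABCC4 34.5 and 36.2 CPM (log2 0.18, adjusted p = 0.341). ABCC1 had 18.9 and 18.8 CPM, both above the vehicle libraries at 16.0 and 15.4 CPM (log2 0.27, SE 0.14, adjusted p = 0.379). For the 2 apical exporters the intervals were wide: ABCG2, a carrier of talazoparib, had a log2 fold change of 0.09 (-0.31 to 0.48), and ABCC2, whose talazoparib libraries stood at 5.63 and 7.79 CPM, had -0.23 (-0.54 to 0.09).

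Under the combination ABCC3 and ABCC5 passed the test in EGI-1, in opposite directions. Markers of epithelial and of other cell types moved under the combination too, where 11.1% of all genes were called higher. Of the 8 epithelial markers 3 rose and 0 fell. SOX9 rose by 0.93, KRT7 by 0.70 and KRT8 by 0.18 on the log2 scale, the call of KRT8 being lost without either vehicle library or combination replicate 1. Of 3 endothelial markers tested 2 rose, VWF and CDH5. The summed level of their list was 19.8 and 21.2 CPM in vehicle, 28.7 and 29.8 CPM in the combination. COL1A1, the 1 fibroblast marker tested of 6 listed, and LYZ, 1 of 2 immune markers tested, also rose. The log2 fold changes of VWF and COL1A1 were 1.64 and 0.64, and 1.82 and 0.75 without combination replicate 2. Those of CDH5 and LYZ were 0.36 and 1.52, and 0.29 and 1.03 without this library, where both lost their calls. CDH5 also lost its call without either vehicle library, and LYZ without vehicle replicate 2. The part of these markers in the results below was not tested. ABCC3 was at 100.3 and 91.5 CPM, lower than in any other EGI-1 library. Against vehicle it fell by 45% (log2 fold change -0.86, SE 0.073, adjusted p = 2.86e-07). The order over the arms was vehicle at 173 ± 2.6, decitabine at 148 ± 13, talazoparib at 116 ± 8.0 and combination at 95.9 ± 6.2 CPM (SD, n = 2 each), and no 2 neighbouring arms overlapped. The first 2 neighbours did not differ by the test, as given above, and neither did the last 2, as given below.

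ABCC5 rose under the combination, to 27.4 and 27.8 CPM from 20.1 and 20.4 CPM, with all other EGI-1 libraries between. The rise was 35.3% (log2 0.44, SE 0.091, adjusted p = 0.00239). Of 6 members tested, 1 was called higher and 1 lower, against 11.1% and 7.61% of all genes. With upper-quartile scaling the share of higher genes among all those called was 49.2%, against 59.3% with the scaling used here, and both members kept their calls.

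The remaining members were not called against vehicle. ABCC4 had 34.5 and 40.1 CPM (log2 0.25, SE 0.091, adjusted p = 0.0656), and it passed the test in a fit of only the vehicle and combination libraries (adjusted p = 0.0158), without decitabine replicate 1 (0.0264) or 2 (0.0258), and without combination replicate 1 (0.0323). ABCC2 was at 6.29 and 6.59 CPM, below both vehicle libraries at 7.88 and 7.99 CPM (log2 -0.31, adjusted p = 0.179). ABCG2 stood at 4.29 and 5.70 CPM (log2 0.21, adjusted p = 0.482) and ABCC1 at 16.3 and 12.2 CPM (log2 -0.15, adjusted p = 0.514). In these last 2 the combination libraries lay on both sides of a vehicle library.

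Without combination replicate 2, the library with lymphocyte transcripts, ABCC3 was still called (log2 -0.79, adjusted p = 3.06e-05), and so was ABCC5 (log2 0.43, adjusted p = 0.0251). ABCC4 was then at 0.14 (adjusted p = 0.47), ABCC2 at -0.34 (adjusted p = 0.308), ABCG2 at -0.011 (adjusted p = 0.985) and ABCC1 at 0.049 (adjusted p = 0.888). Such a fit leaves 1 combination library, which is assumed to vary like the other arms.

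**Figure D3:**
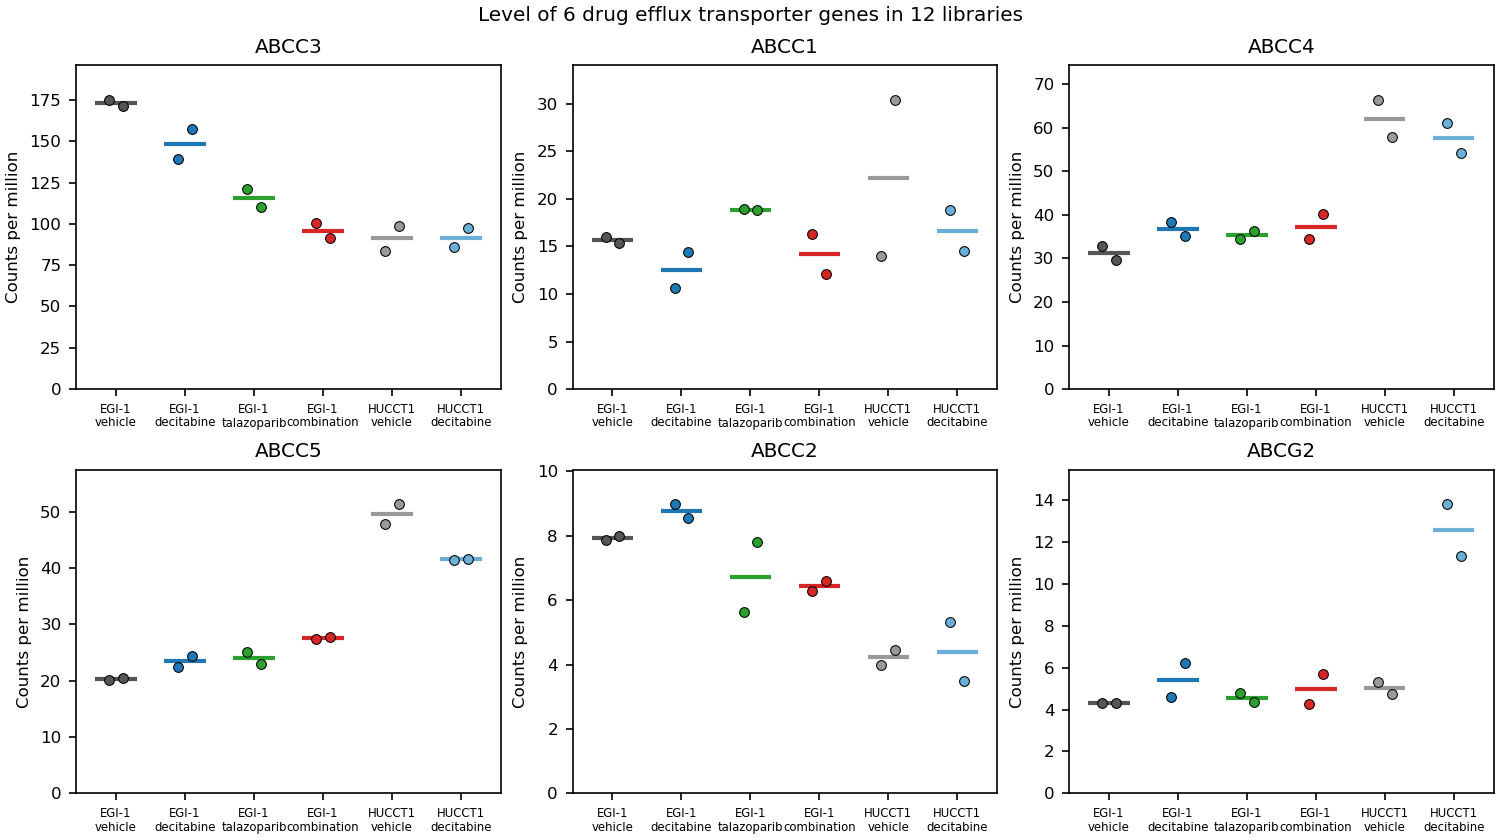
Level of 6 members in CPM (linear axes from 0) in every library, points for the 2 replicates and a bar for their mean, EGI-1 arms first and HUCCT1 arms last. ABCC3 steps down from 173 CPM in EGI-1 vehicle to 95.9 in the combination, ABCC5 steps up from 20.3 to 27.6, and ABCG2 rises in HUCCT1 with decitabine from 5.05 to 12.6.

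**Figure D4:**
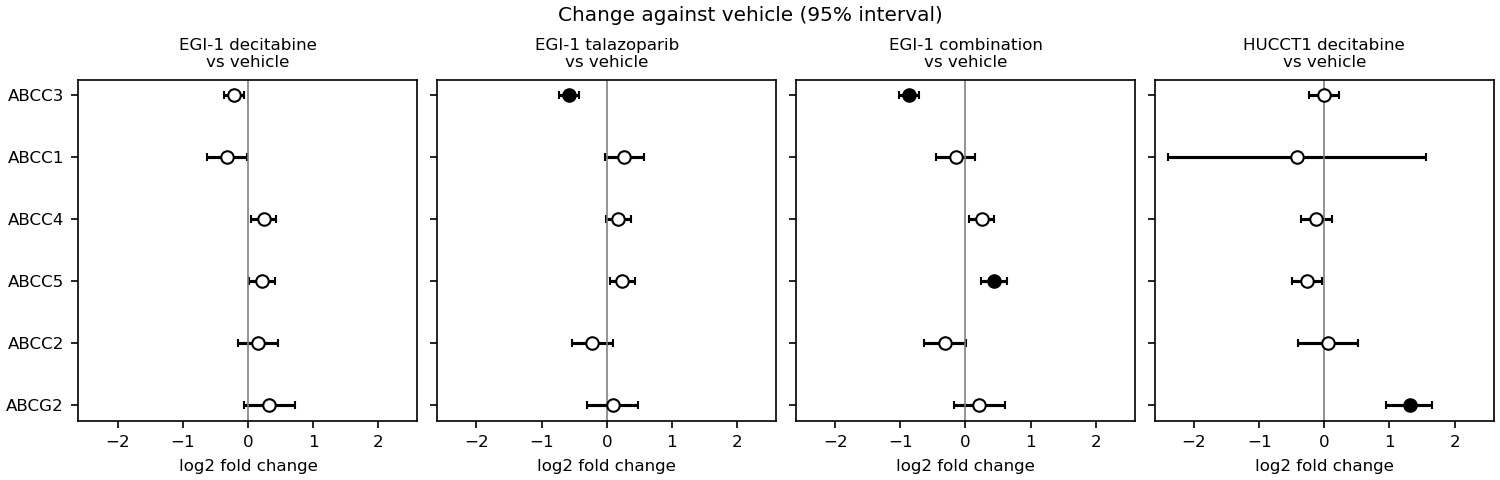
Log2 fold change against vehicle of 6 members with 95% intervals in 4 comparisons, filled where the adjusted p was under 0.05. The filled points are ABCC3 with talazoparib (-0.58) and the combination (-0.86), ABCC5 with the combination (0.44) and ABCG2 with decitabine in HUCCT1 (1.31), and the wide interval is that of ABCC1 in HUCCT1.

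What the second agent adds was tested by setting the combination against each single agent. Against decitabine, ABCC3 fell by 36.1% (log2 -0.65, SE 0.073, adjusted p = 2.3e-05), and without combination replicate 2 it stood at -0.58 (adjusted p = 0.00156). It was the 1 member called, against 3.26% of all genes lower and 4.42% higher. ABCC2 had a log2 fold change of -0.46 (adjusted p = 0.0741) with separate libraries, 6.29 and 6.59 against 8.98 and 8.55 CPM, and -0.49 (adjusted p = 0.198) without combination replicate 2.

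Against talazoparib, ABCC3 had a log2 fold change of -0.28 (SE 0.074, 95% interval -0.44 to -0.13, adjusted p = 0.062). This value lay close to the threshold: DESeq2 called it (adjusted p = 0.0462), as did upper-quartile scaling (adjusted p = 0.0494), and without combination replicate 2 it was -0.21 (adjusted p = 0.452). Without decitabine replicate 1 or 2 it was -0.28 and called (adjusted p = 0.00588 and 0.00621). ABCC1 had -0.42 (adjusted p = 0.175), with 16.3 and 12.2 CPM in the combination against 18.9 and 18.8 CPM. Without combination replicate 2 it stood at -0.22 (adjusted p = 0.709), and without combination replicate 1, which leaves the library with lymphocyte transcripts as the whole arm, at -0.64 (adjusted p = 0.0472). It was also called without decitabine replicate 1 or 2 (adjusted p = 0.0308 and 0.0329), and over all alternatives its adjusted p ran from 0.0125 to 0.796. By edgeR 0 of 6 members were called, against 0.567% of all genes called lower and 1.36% higher, and DESeq2 called 1 member. An unadjusted p under 0.05 by edgeR was found for 3 members and for 2977 of all 22406 genes.

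An interaction term tested whether both agents together did more or less than their single log2 effects added up. This departure was -0.07 for ABCC3 (95% interval -0.28 to 0.15) and -0.02 for ABCC5 (-0.29 to 0.25). It lay farthest from 0 for ABCC2 at -0.23 (-0.68 to 0.21). Without combination replicate 2 it was 0.006 for ABCC3, -0.027 for ABCC5 and -0.26 for ABCC2. By edgeR 0 members were called, 0 had an unadjusted p under 0.05, and DESeq2 called 0. Among all genes 0.152% were called below the sum and 0.00893% above it.

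The summed CPM of the 7 members fell with the share of ABCC3. It was 256 and 249.1 CPM in the vehicle libraries of EGI-1, 224.2 and 246.3 with decitabine, 210.3 and 200.2 with talazoparib and 189 and 184.2 with the combination. The share of ABCC3 went from 68.4% and 68.8% in vehicle to 62.1% and 63.9%, 57.7% and 55%, and 53% and 49.6% in the same order. These sums and shares are given as descriptions.

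In HUCCT1 the member that answered to decitabine was ABCG2. It had 13.8 and 11.3 CPM with decitabine, against 5.34 and 4.76 CPM with vehicle. The rise was 2.47-fold (log2 1.31, SE 0.17, adjusted p = 1.18e-06), and it was called in each of 10 alternatives, at log2 1.15 to 1.44. Of 6 members tested, 1 was called higher and 0 lower, against 19.6% and 13.9% of all genes, so a call was common in this comparison. In the same 2 libraries 4 of 4 endothelial markers and some lymphocyte genes rose, as given above. Of 6 fibroblast markers listed 4 were tested, of which 3 rose and 1 fell, and 5 of the 8 epithelial markers fell. The part of these markers in the ABCG2 result was not tested. The rise moved ABCG2 from rank 5 to rank 4 in the order per length, at 2.24 ± 0.31 CPM per kilobase, where it overlapped ABCC1 at 1.90 ± 0.35.

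No ABCC member passed the test in HUCCT1 when this line was fitted alone without a replicate block. ABCC3 had 85.8 and 97.6 CPM with decitabine against 83.5 and 99.0 CPM with vehicle, a log2 fold change of 0.00 with a 95% interval of -0.24 to 0.23. ABCC4 had 61.1 and 54.1 against 66.4 and 57.8 CPM (log2 -0.12, -0.36 to 0.12). ABCC5 had 41.5 and 41.6 CPM, below both vehicle libraries at 47.9 and 51.4 CPM (log2 -0.26, SE 0.11, adjusted p = 0.0755). It was called with all 12 libraries in one fit (adjusted p = 0.0307) and with a replicate block by title number (adjusted p = 0.00193).

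ABCC2 had 5.31 and 3.48 against 3.99 and 4.46 CPM, with overlap (log2 0.05, -0.41 to 0.51). ABCC1 had 18.8 and 14.5 CPM, both between its 2 vehicle libraries, and its interval of -2.40 to 1.56 was the widest of the members. Without vehicle replicate 1 ABCC1 was called as lower (log2 -0.89, adjusted p = 5.27e-07), and without vehicle replicate 2 it stood at 0.22 (adjusted p = 0.395).

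The decitabine effect was then compared between the lines, over 25096 genes in 1 fit of all libraries. The dose was 1 μM in HUCCT1 and 0.5 μM in EGI-1, so the line and the dose cannot be told apart. ABCG2 changed more in HUCCT1, with a difference of 0.99 on the log2 scale (SE 0.25, 95% interval 0.47 to 1.52, adjusted p = 0.00915). ABCC5 had a difference of -0.46 (SE 0.13, adjusted p = 0.0174), lying below vehicle in HUCCT1 and above it in EGI-1. Neither line passed its own test for ABCC5 when fitted alone without a replicate block, while HUCCT1 did with the block given above. Of 6 members 1 was called in each direction, against 8.74% of all genes higher and 7.2% lower.

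Both differences were near the threshold in some fits with 1 library left out. ABCG2 stood at 0.78 without EGI-1 decitabine replicate 1 (adjusted p = 0.057). ABCC5 missed the threshold without either EGI-1 vehicle library, without EGI-1 decitabine replicate 2 and without HUCCT1 vehicle replicate 2, with adjusted p-values of 0.0529 to 0.0705. ABCC4 had a difference of -0.34 (adjusted p = 0.115, and 0.0308 with no filter) and ABCC3 of 0.23 (adjusted p = 0.276).

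Of 41 other ABC genes listed, 26 could be tested in EGI-1, and 8 rose and 1 fell under the combination, where 11.1% of all genes were called higher and 7.61% lower, a balance that shifts with the scaling as given above. The list's median log2 fold change was 0.27 against -0.02 over all genes. ABCA2, a lipid transporter of endosomes, went from 34.3 and 33.6 CPM to 56.7 and 56.1 CPM (log2 0.72, adjusted p = 1.2e-05). ABCA1, which loads cholesterol onto apolipoprotein A-I, rose by 0.68 and its relative ABCA7 by 0.67 on the log2 scale. ABCA12, the lipid transporter of the skin barrier, fell by 0.52. Of the 9, ABCC10, a further multidrug exporter of the ABCC branch, rose by 0.32 (adjusted p = 0.0048). Without combination replicate 2, 7 were called, and 5 without vehicle replicate 2.

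With decitabine in HUCCT1, 7 of 27 other ABC genes rose and 4 fell, with a median of 0.22 against 0.00 over all genes, where 19.6% of all genes were called higher and 13.9% lower, so these counts lie near the background. The largest rise was that of CFTR, the ABC family member that forms the chloride channel of ducts, from 0.132 and 0.298 CPM to 3.12 and 2.64 CPM (log2 3.71, SE 0.39, adjusted p = 4.1e-08). ABCA10 rose by 2.48 and ABCA5 by 1.37. ABCA2 and ABCA7, which rose under the combination in EGI-1, fell here by 0.46 and 0.34. With decitabine alone in EGI-1, 0 of 26 were called by edgeR and 5 had an unadjusted p under 0.05, as had 2048 of all 22406 genes. With talazoparib 1 rose (ABCA2) and 1 fell (ABCA12), against 2.83% and 1.29% of all genes. The ABCA2 call with talazoparib was lost without vehicle replicate 1, vehicle replicate 2 or talazoparib replicate 1, where its log2 fold change was 0.46, 0.43 and 0.37, and that of ABCA12 without vehicle replicate 2, at -0.58.

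**Figure D5:**
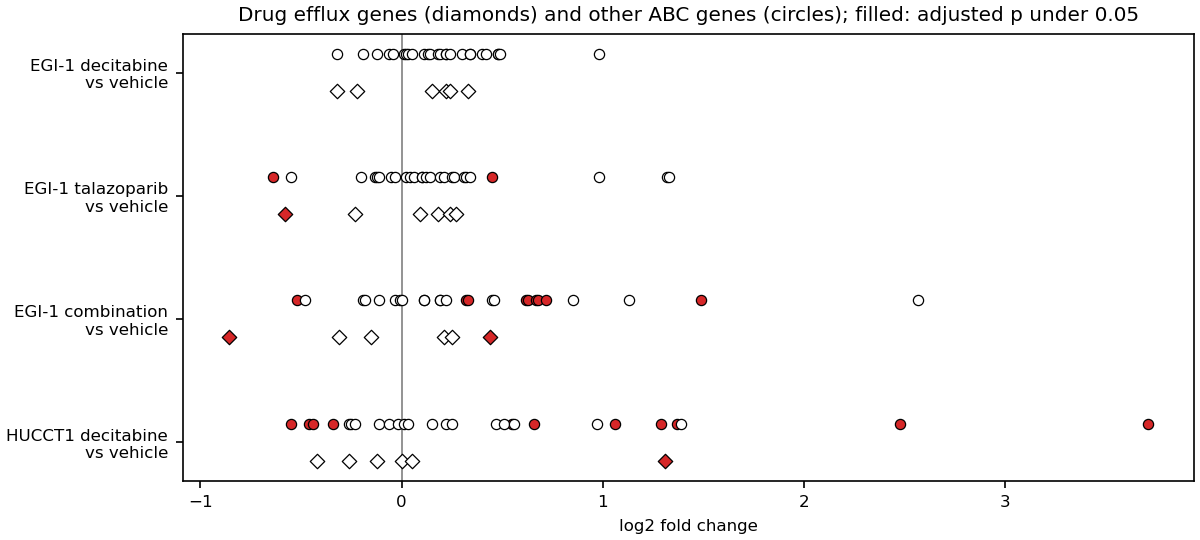
Log2 fold change against vehicle of the drug efflux genes (diamonds) and of the other ABC genes that could be tested (circles) in 4 comparisons, filled red where the adjusted p was under 0.05. Under the EGI-1 combination 8 filled circles lie to the right and 1 to the left, and in HUCCT1 the circle farthest to the right is CFTR at 3.71.

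Genes that act upstream of efflux were followed in the same way. The targets of NFE2L2, the transcription factor of the antioxidant response that is known to induce several ABCC genes, included several that fell with talazoparib and with the combination, which share their vehicle libraries. Of 19, 6 fell and 1 rose with talazoparib (median -0.19), and 10 fell and 1 rose with the combination (median -0.27). Of all genes 1.29% were called lower with talazoparib and 7.61% with the combination. The 7 calls with talazoparib became 4 without vehicle replicate 1 or talazoparib replicate 1. SLC7A11, the cystine importer, fell with talazoparib from 54.1 and 50.6 CPM to 34.0 and 37.1 CPM (log2 -0.55, adjusted p = 0.0013, and 0.0501 without vehicle replicate 1). AKR1C2, an aldo-keto reductase whose close relatives may share its reads, fell by 0.90 with talazoparib and by 0.86 with the combination. Its calls were lost without either vehicle or talazoparib library and without combination replicate 1 for talazoparib, and without vehicle replicate 2 or either combination library for the combination (adjusted p = 0.0505 to 0.341 over these). HMOX1, heme oxygenase, was the target that rose in both, by 0.49 and 0.95, the first call being lost in 5 fits with 1 library left out (adjusted p = 0.0571 to 0.56). NFE2L2 itself fell under the combination from 101 and 99.5 CPM to 83.8 and 88.9 CPM (log2 -0.22, adjusted p = 0.025), and was not called without either vehicle or either combination library (adjusted p = 0.0525 to 0.18). With the combination, 7 targets were called without either combination library or without vehicle replicate 2. With decitabine alone 0 of 19 were called by edgeR and 3 had an unadjusted p under 0.05, as had 2048 of all 22406 genes.

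In HUCCT1, 4 of 19 NFE2L2 targets rose and 7 fell with decitabine (median -0.13), against 19.6% and 13.9% of all genes, so the share that rose is near the background. AKR1B10 and AKR1C3 each fell by 1.26. Of 12 nuclear receptors and other regulators of transporter genes tested, 1 rose and 3 fell in HUCCT1, against 19.6% and 13.9% of all genes, with 2 called without vehicle replicate 1 and 1 without decitabine replicate 2. Among those that fell was PPARA, the fatty acid receptor, which went from 47.9 and 49.8 CPM to 23.3 and 23.3 CPM (log2 -1.08, adjusted p = 6.3e-08). Under the combination in EGI-1, 4 of 12 fell against 7.61% of all genes, the steroid receptor NR3C1 by 0.31. Of the 12, 2 were called without combination replicate 2, 1 without combination replicate 1 and 0 without vehicle replicate 1 or 2, where NR3C1 had adjusted p = 0.0533 and 0.0706.

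The conjugating enzymes, which make substrates for the ABCC exporters, were led by GSTM4, a glutathione transferase with close relatives. It rose under the combination from 4.07 and 4.03 CPM to 7.97 and 6.98 CPM (log2 0.87, adjusted p = 0.00045), and with decitabine in HUCCT1 from 16.0 and 16.6 CPM to 58.0 and 60.4 CPM (log2 1.85, adjusted p = 5.2e-12). In all, 4 of 11 rose and 0 fell under the combination, with 2 called without combination replicate 2 and 1 without vehicle replicate 2, against 11.1% of all genes called higher. In HUCCT1 5 of 15 rose and 4 fell, against 19.6% and 13.9% of all genes. UGT1A1, a bilirubin glucuronidating enzyme whose exons are partly shared with its gene cluster, fell by 1.34 on the log2 scale in HUCCT1, a call lost without vehicle replicate 1 (adjusted p = 0.0741).

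Of 15 uptake carriers tested, which bring drugs in, 8 were higher and 2 lower with decitabine in HUCCT1, against 19.6% and 13.9% of all genes, with a median of 0.42. The organic cation transporter SLC22A2 went from 0.165 and 0.265 CPM to 1.97 and 1.99 CPM (log2 3.17). SLC22A3, a more abundant gene of this list, went the other way, from 42.2 and 39.6 CPM to 18.8 and 22.4 CPM. In EGI-1, 1 of 13 was called under the combination, SLCO3A1, which fell by 0.27, against 7.61% of all genes called lower. This is near the background, and the call was lost without combination replicate 2 or either vehicle library. Of 7 genes tested that hold transporters in the membrane, 1 rose and 1 fell with the combination, against 11.1% and 7.61% of all genes. With decitabine in HUCCT1, 0 of 8 tested rose and 2 fell, against 19.6% and 13.9% of all genes. CAV1, the coat protein of caveolae, fell with the combination from 432 and 435 CPM to 282 and 301 CPM (log2 -0.58, adjusted p = 8.4e-07) and with decitabine in HUCCT1 by 1.10. NHERF1, a scaffold of apical membranes, rose under the combination by 0.47. Without combination replicate 2 the changes were -0.63 for CAV1, 0.54 for NHERF1 and 0.97 for GSTM4, each still called.

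Finally, the genes whose levels ran most like those of each member were listed over the 8 EGI-1 libraries, among 13707 genes. Pearson's r describes this likeness, over points that share 4 treatments, and the closest were selected from all genes. For ABCC3 they were SHH (0.999), the pseudogene HNRNPRP1 (0.995) and PIK3C2B (0.992). For ABCC5 they were SLC46A1 (0.993), TBKBP1 (0.991) and FAM174B (0.991). For ABCG2 they were KANK3 (0.95), GCLM (0.941) and SLC15A4 (0.934), and GCLM is also one of the NFE2L2 targets counted above. ABCG2 was highest in decitabine replicate 2 and combination replicate 2, at 6.21 and 5.70 CPM, against 4.59 and 4.29 CPM in their partner libraries. No r was computed without combination replicate 2, the library with lymphocyte transcripts. ABCC2 ran closest to FHIP1A (0.991), ABCC1 to MTA1 (0.974) and ABCC4 to BACH1 (0.978). Among the members themselves, r was -0.85 between ABCC3 and ABCC5, 0.63 between ABCC2 and ABCC3, and -0.63 between ABCC3 and ABCC4.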

How the data were processed

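The data are a table of raw counts per gene, deposited by the authors without normalization, with 12 libraries as columns and 60651 Ensembl identifiers as lines. A symbol was found for 60437 of them, among them all 7 members, with the same identifier version. The paper's methods name fastp, STAR and RSEM on GRCh38, whereas the submitters' processing notes name fastp, Trim Galore, HISAT2 and featureCounts. The values are whole numbers in the layout that featureCounts writes. Whether strand was used in counting, and the annotation, are not given in the sources used here. Names of the talazoparib libraries carry T50 where labels and methods give 200 nM, and the methods do not describe the HUCCT1 libraries.

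Groups came from the labels. Counts were filtered with filterByExpr, scaled by TMM and fitted with edgeR 4.0.16 (robust quasi-likelihood test, two-sided) in R 4.3.3. EGI-1 (22406 genes), HUCCT1 (22479 genes) and both lines together (25096 genes) were fitted apart, and p-values were adjusted by Benjamini-Hochberg over all genes of a fit, with 0.05 as the threshold for a call. CPM uses TMM factors over 12 libraries. Gene coordinates and exon lengths come from GENCODE 44 on GRCh38. Floors are 3 counts, and intervals of counts are exact Poisson. Replicates differed by 2.56 to 11.1 in chi-square per gene, above counting noise.

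Members and lists were chosen with earlier results of these data known. The text names all members, and of each other list up to 3 called genes with the largest change at a mean log2 CPM of at least 0, except a gene that is not reported here. ABCA12, ABCC10, ABCA7 and ABCA2 in HUCCT1, SLC22A3 in HUCCT1, COL1A2, COL3A1, DCN and the lymphocyte genes were added after their values were seen. Alternatives were RLE and upper-quartile factors, no filter, DESeq2 1.42.0, fewer or all libraries in a fit, replicate blocks and each library left out.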

Additional observations from a re-analysis of the deposited data

Results flagged for a closer look

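The response to decitabine differed between the lines for 2 members, by the interaction test over all libraries. For ABCG2 the log2 change in HUCCT1 minus that in EGI-1 was 0.99 (adjusted p = 0.00915), and both HUCCT1 libraries with decitabine lay above every EGI-1 library, at 11.3 and 13.8 CPM. For ABCC5 the difference was -0.46 (adjusted p = 0.0174), with both HUCCT1 decitabine libraries below their vehicle and both EGI-1 decitabine libraries above theirs. The dose was 1 μM in HUCCT1 and 0.5 μM in EGI-1, and line and dose cannot be told apart.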

How the results depend on the processing

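The calls of ABCC3 with talazoparib and with the combination against vehicle and against decitabine, of ABCC5 with the combination, of ABCG2 with decitabine in HUCCT1 and of ABCC2, ABCC3, ABCC4 and ABCC5 between the vehicle lines held in every alternative run, each in its direction. For the other counts of members called the cause of a change was not tested. The combination against talazoparib gave 1 member, ABCC3, with upper-quartile factors, with DESeq2 and with only the libraries of the compared arms, and 2, ABCC1 and ABCC3, with no filter. With no filter the combination gave 4 against vehicle, adding ABCC4 and ABCB1 (adjusted p = 0.0183), whose counts lie in combination replicate 2, and 2 against decitabine. Decitabine in HUCCT1 gave 2 with all 12 libraries in one fit, adding ABCC5. When single libraries were dropped, the count of members called ranged from 0 to 1 for decitabine in EGI-1, from 2 to 4 for the combination against vehicle (4 without combination replicate 1, with ABCB1 at adjusted p = 0.0208), from 0 to 2 for the combination against talazoparib, from 1 to 2 for decitabine in HUCCT1 and from 1 to 2 for the difference between lines. A fit that leaves 1 library in a group assumes that it varies like the others.

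Numbers in the titles and in the library names share no stated batch. Deviations of same-numbered libraries correlated at -0.27 to 0.20 in EGI-1 and at 0.29 in HUCCT1. With a replicate block by title number, 2 members were called with decitabine in HUCCT1, ABCC5 being added (adjusted p = 0.00193), and the other within-line counts of members did not move with this block or with that by name series. With the decitabine numbers crossed, an alternative chosen after seeing the data, the replicate block gave 1 member for decitabine in EGI-1, 3 for the combination against vehicle, 2 against decitabine and 2 against talazoparib.

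Values of members that were not called turned sign when single libraries were left out. ABCC3 with decitabine in HUCCT1, at -0.003 on the log2 scale, was 0.02 with upper-quartile factors, 0.006 with all 12 libraries in one fit, and -0.13 to 0.1 with a library left out. For decitabine in HUCCT1 such ranges were -0.89 to 0.22 for ABCC1 and -0.29 to 0.32 for ABCC2. For the difference between lines they were -0.55 to 0.58 for ABCC1 and -0.43 to 0.18 for ABCC2, and for the vehicle lines -0.16 to 0.96 for ABCC1. For the combination against vehicle they were -0.011 to 0.39 for ABCG2 and -0.37 to 0.049 for ABCC1. Against decitabine they were -0.34 to 0.12 for ABCG2, -0.051 to 0.4 for ABCC1 and -0.1 to 0.11 for ABCC4. Against talazoparib they were -0.093 to 0.31 for ABCG2, -0.28 to 0.19 for ABCC2 and -0.042 to 0.17 for ABCC4. For the departure from the sum they were -0.42 to 0.038 for ABCG2, -0.32 to 0.14 for ABCC1, -0.43 to 0.04 for ABCC2, -0.15 to 0.033 for ABCC3 and -0.083 to 0.049 for ABCC5. Over all genes, calls for the combination against vehicle ranged from 1850 to 5799 around 4194, and those for decitabine in EGI-1 from 22 to 417 around 122. Groups of 2 libraries limit every test, and differences of ABCB1 under its floor were not detectable at this depth.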
